A study of Mus musculus with 12 samples.

Results

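The regions described here are anti-m6A immunoprecipitation (IP) peaks that lie at the 5′ end of a gene in J1 mouse embryonic stem (ES) cells. A peak was a member if its midpoint lay within 500 nt of the 5′ end of the gene that the deposited table assigns it to, and at least 1000 nt from the other end of that gene. This rule used positions only and no measured value. It found 346 of 9131 peaks in the table of Mettl14 knockdown and scramble of set 1, and 363 of 6862 in that of set 2. It found 329 of 8671 peaks in the table of Mettl3 knockdown and scramble of set 1, and 374 of 6854 in that of set 2. Over the 4 tables these were 1166 of 26773 distinct coordinates, in 681 of 5966 genes.

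The groups were cells with a Mettl14 knockdown, cells with a Mettl3 knockdown and cells with a scramble control, all infected with lentivirus carrying an shRNA, selected with puromycin and grown on irradiated fibroblast feeders with LIF. Each group has 2 IP libraries, and the 6 libraries labelled with antibody none were not analysed on their own, since no column of the tables is theirs alone. The deposited fold enrichments are ratios of an IP library to its own control, so a control enters those values. Which libraries served as these controls was not examined here. The tables fall into set 1 and set 2, each with 1 Mettl14, 1 Mettl3 and 1 scramble library, so both knockdowns of a set were compared with the same scramble library. The submitters' design text speaks of 1 biological replicate each, and nothing in the labels says that the libraries came from separate cultures. The p-values therefore measure only the spread between these libraries, which may be technical. The tables list peaks and not RNA levels, so the knockdown of the targeted genes was not checked here, and fewer peaks cannot be told apart from less RNA of a gene.

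N6-methyladenosine (m6A) is the commonest internal modification of mRNA, and Mettl3 and Mettl14 form the heterodimer that writes it, Mettl3 as the catalytic subunit. Most m6A lies in long internal exons, near stop codons and in 3′ UTRs. The adenosine next to the mRNA cap can carry a related mark, m6Am, which is written by the separate enzyme PCIF1, and antibodies raised against m6A are known to bind m6Am too. The preferred context of the Mettl3-Mettl14 enzyme is the pentamer known as DRACH, where D is A, G or T, R is A or G, and H is A, C or T, and its commonest methylated form is GGACT.

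The sequences below are 30-nt windows around the DRACH pentamer nearest to the summit of the peak. The library used was that with the most tags in that gene's peak, among libraries with a listed tag count. Scramble peaks shared with both knockdowns have no listed count. They are a choice from the windows read for the genes named below: peaks found in most libraries, peaks lost in every knockdown library and the peak new in every knockdown library. Every window with GGACT as its pentamer is shown, and no window left out has it. Those left out include Arhgap5 (AAACT), Synm (GAACC), Zfp30 (GGACC), Ndst2 (TGACT) and Mblac2 (TGACA). The share with GGACT among the windows shown is therefore higher than among all windows read. Each runs 5′ to 3′ in the sense of the RNA, the pentamer is in capitals, and the letters were read from GENCODE M21 transcripts on GRCm38, the assembly also called mm10.
Foxo6: tctgccgcagccGGACTtggccggcgacga
Cnnm3: gcgccgggcgcgGGACTgctgaacttctgc
Fbxw7: ggctcctcggcgGGACTccaggagttctcg
Ep300: gtggcgggctggGGACTgcgtctgtagagc
Spry2: tccaacggtggaGGACTgggttccaaaatt
Inhbb: aggcaaagcgaaGAACTcctcgggcgcgct
Olig1: gctccgctcgctGAACCtcggggacctgcg
Gm20632: cagtgttgtgtaGGACAagggtgtgggcag
Bhlhe22: ccgctccctccgAGACCagcctcccaccat

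The 5 windows with GGACT lie at chr4:120287140-120287169 on the minus strand (Foxo6), chr1:36512001-36512030 on the plus strand (Cnnm3), chr3:84815349-84815378 on the plus strand (Fbxw7), chr15:81586297-81586326 on the plus strand (Ep300) and chr14:105896740-105896769 on the minus strand (Spry2). The window of Foxo6 and that of Cnnm3 are coding sequence, those of Fbxw7 and Spry2 are 5′ UTR, and that of Ep300 lies in an exon that the transcript annotation gives as noncoding. In Fbxw7, Spry2, Ep300, Cnnm3 and Foxo6 the adenosine of the pentamer lay 95, 64, 97, 148 and 194 nt from the listed gene start. The windows of Inhbb (chr1:119422161-119422190, minus strand) and Bhlhe22 (chr3:18054532-18054561, plus strand) are 5′ UTR. That of Olig1 (chr16:91270075-91270104, plus strand) is coding and that of Gm20632 (chr3:96239535-96239564, plus strand) is an exon of an antisense RNA. A pentamer in a window is a description of the letters there and not a measured site.

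The peaks at gene 5′ ends made up 3.72 to 6.01% of the gene-assigned peaks of a library. The Mettl14 knockdown libraries held 189 of 5005 (3.78%) in set 1 and 216 of 3785 (5.71%) in set 2. The Mettl3 knockdown libraries held 170 of 4571 (3.72%) and 240 of 3991 (6.01%), and the scramble libraries 272 of 6705 (4.06%) and 225 of 4629 (4.86%). In set 1 both knockdown libraries had a lower share than the scramble library, and in set 2 both had a higher share, as the bar plot of shares shows. The 4 knockdown libraries averaged 0.345 percentage points more than the 2 scramble libraries, and this did not pass an exact permutation test of the library labels (two-sided p = 0.667, adjusted p = 0.667 over 6 tests; the smallest p this design allows is 0.0667). The number of 5′ end peaks itself was lower in both knockdown libraries of set 1 than in the scramble library, while in set 2 the Mettl3 library held more and the Mettl14 library fewer.

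**Figure D1:**
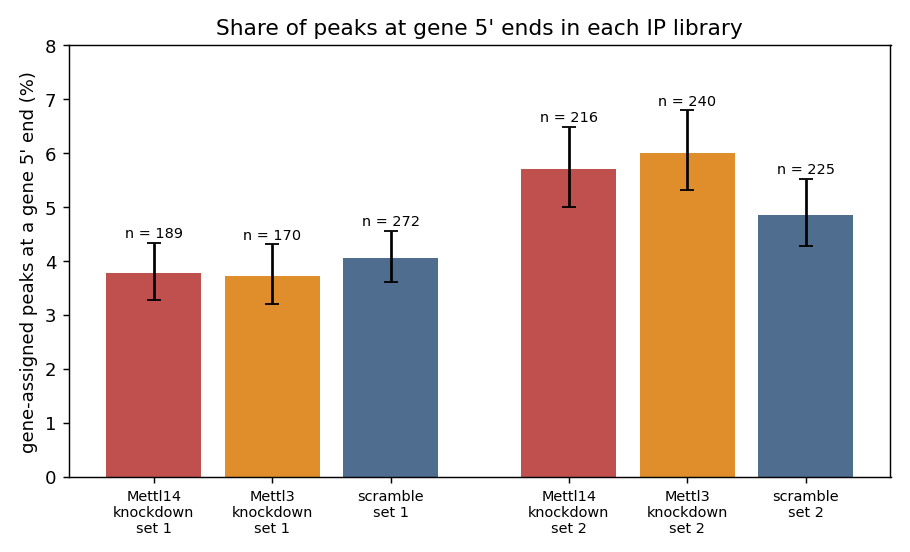
Share of gene-assigned peaks at a gene 5′ end (%) in each of the 6 IP libraries, with the number of such peaks; error bars are 95% Wilson intervals (counting error only). The Mettl14 and Mettl3 knockdown libraries of set 1 (3.78 and 3.72%) sit below their scramble library (4.06%), and those of set 2 (5.71 and 6.01%) above theirs (4.86%).

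Most members were protein-coding: 89.4 to 96.7% of those with an annotated gene, against 97.4 to 98.4% of the other gene-assigned peaks. Matched to GENCODE M21 transcripts, 41.4 to 58.4% of their midpoints fell in a 5′ UTR, 17.7 to 33.2% in coding sequence, 10.4 to 15.6% in an exon of a noncoding transcript, 6.70 to 9.77% upstream of the transcript and 2.45 to 6.70% in an intron. The largest class in each of the 6 libraries was the 5′ UTR, which held 1.59 to 2.09% of the midpoints of the other peaks. The median distance of the midpoint from the listed start was 125.5 to 225 nt downstream, and 9.17 to 13.6% of midpoints lay upstream of it. With gene ends taken from GENCODE M21 in place of the tables, 157 of the 189 Mettl14 and 140 of the 170 Mettl3 knockdown peaks of set 1 were still at a 5′ end, as were 187 of 216 and 218 of 240 in set 2. In the scramble libraries 231 of 272 and 190 of 225 were.

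At the edge of the rule in the scramble library of set 1, the farthest members were the peaks of Sfswap, at 500 nt, Hs6st1, at 498.5 nt, and Nr2f6, at 496 nt from the gene start. The nearest peaks outside were those of Fzd8, at 509.5 nt, Fmn2, at 511.5 nt, and Efhb, at 513.5 nt. Their fold enrichments were 8.89, 8.12 and 9.25 inside and 20.3, 32.5 and 162 outside. Fzd8 had another peak inside the limit in the same library, so the limit divides peaks of 1 gene.

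Peaks at gene 5′ ends were narrower than the other gene-assigned peaks in all 6 libraries. Their median width was 345 nt in Mettl14 set 1, 278 nt in Mettl14 set 2, 391.5 nt in Mettl3 set 1, 315 nt in Mettl3 set 2, 461.5 nt in scramble set 1 and 549 nt in scramble set 2. The other peaks had medians of 529, 644, 559, 614, 597 and 718.5 nt in the same order of libraries. The mean difference of the library medians was -0.68 on a log2 scale (exact sign-flip permutation test over 6 libraries, two-sided p = 0.03125, the smallest these libraries can give; adjusted p = 0.0625 over 6 tests). The part of the rule, which places midpoints near a gene end, in this width was not tested on its own. Peaks at gene 3′ ends, chosen by the mirrored rule, had medians of 420 to 550 nt, and the 5′ end peaks were narrower than these too, with a mean log2 difference of -0.33 (p = 0.03125 by the same permutation test).

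Their fold enrichment, the authors' deposited ratio of IP to control for a peak, was higher than that of the other gene-assigned peaks in all 6 libraries. This ratio does not follow the listed tags alone. In scramble set 2 the peaks of Dync2h1, on 17 tags, and Net1, on 25 tags, both have 155.94. How the control value was set is not stated, so a high ratio on few tags is not read as stronger methylation. Median enrichments at 5′ ends were 25.1 and 18.5 in the Mettl14 libraries of sets 1 and 2, 23.7 and 16.1 in the Mettl3 libraries, and 20.9 and 21.6 in the scramble libraries. The other peaks had 15.2 and 12.0 (Mettl14), 16.8 and 11.4 (Mettl3), and 15.4 and 15.1 (scramble). The mean difference of the library medians was 0.55 on a log2 scale (exact sign-flip permutation test, two-sided p = 0.03125; adjusted p = 0.0625 over 6 tests). Members held fewer tags at the same time: 32 to 41.5 at the median in the knockdown libraries, against 66 to 88 in other peaks of those libraries. Among peaks of 200 to 600 nt, an alternative chosen after seeing the data, the difference in enrichment was 0.18 on a log2 scale and did not pass the permutation test (p = 0.0938).

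The letters under the members differed from those under the other peaks. In the exonic part of the peaks, DRACH occurred 16.2, 16.5, 16.4, 14.8, 17.8 and 16.3 times per kb at 5′ ends (Mettl14 sets 1 and 2, Mettl3 sets 1 and 2, scramble sets 1 and 2). In the other peaks it occurred 22.3, 22.5, 22.2, 21.7, 22.3 and 21.7 times per kb. The density was thus lower at 5′ ends in all 6 libraries, with a mean difference of -5.76 sites per kb (exact sign-flip permutation test, p = 0.03125; adjusted p = 0.0625 over 6 tests). GGACT, which is 1 of the DRACH pentamers, went the other way: 1.98 to 2.41 sites per kb at 5′ ends and 1.63 to 1.8 in other peaks, a mean difference of 0.527 sites per kb with the same sign in all 6 libraries (p = 0.03125 by the same permutation test). Peaks at gene 3′ ends held 2.33 to 2.77 GGACT per kb, more than the 5′ end peaks of the same library in all 6. The members are shorter, and a smaller share of them held any GGACT, 39.2 to 59.4%, against 63.4 to 68.3% of the other peaks. Both pentamers were searched on the transcript strand. Most peaks overlapped a peak of another library, so the same sequence was counted in several libraries. The 6 density differences are therefore not independent, and the p-values of both pentamers do not measure 6 separate samples of sequence.

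The members were also rich in G and C, with median contents of 63.6 to 67.5%, against 53.9 to 55.1% in the other peaks. The part of base composition in the motif densities was not tested. The first exon of the matched transcript was longer for members, with medians of 385 to 725.5 nt against 271 to 285 nt for the other peaks. The first base of the transcript, next to the cap in the annotation, was A for 24.2 to 31.1% of members and 24.7 to 26.1% of other peaks. These ranges overlap.

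**Figure D2:**
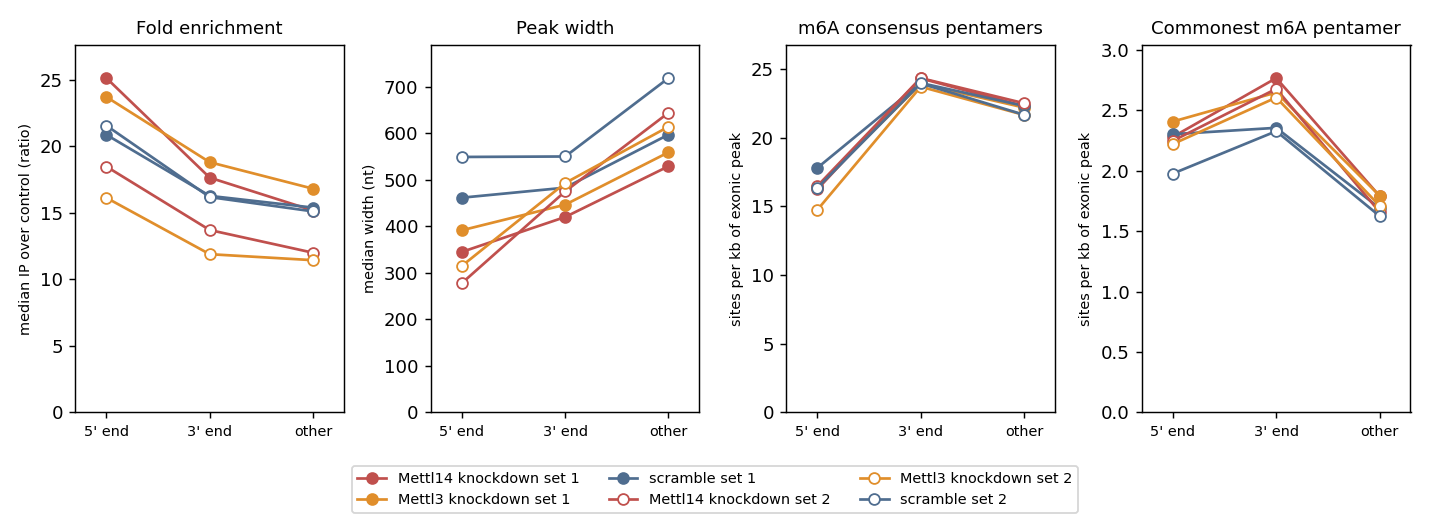
Median fold enrichment (ratio), median width (nt), DRACH pentamers per kb and GGACT pentamers per kb (last panel) for peaks at gene 5′ ends, at gene 3′ ends and for all other gene-assigned peaks, which include the 3′ end peaks; each line is 1 IP library, filled for set 1 and open for set 2. The 5′ end peaks have the lowest width in each library and fewer DRACH pentamers (14.8 to 17.8 per kb) than the other peaks (21.7 to 22.5 per kb).

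The fate of each scramble peak was read from its overlap with the knockdown peaks: lost where no knockdown peak overlapped it, shared where one did. In set 1 Mettl14 knockdown left no overlapping peak at 157 of the 272 scramble 5′ end peaks (57.7%, 95% Wilson interval 51.8 to 63.4%), against 38.2% of the other gene-assigned scramble peaks and 39% of all of them. In set 2 it left none at 147 of 225 (65.3%, 58.9 to 71.2%), against 40.0% of the others and 41.2% of all. Mettl3 knockdown left none at 159 of 272 in set 1 (58.5%, 52.5 to 64.2%), against 40.2% of the others and 40.9% of all, and at 134 of 225 in set 2 (59.6%, 53 to 65.8%), against 35.4% of the others and 36.6% of all. Scramble peaks at gene 5′ ends were thus lost more often than other scramble peaks in all 4 tables, by 21.8 percentage points on average. The exact sign-flip permutation test over the 4 tables gave p = 0.125, the smallest that 4 tables allow (adjusted p = 0.188 over 6 tests), and tables of a set share a scramble library.

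Loss also varied with width, and it was more frequent at gene 3′ ends than among all the other peaks, which include them. The part of either in this difference was not tested. The members lost had median widths of 376 to 497 nt, and those kept 616 to 796 nt. Among scramble peaks under 300 nt, 75 to 89.1% of the 5′ end peaks were lost, against 70.2 to 77.2% of the others, and the 5′ end share was higher in 3 of 4 tables. Between 300 and 600 nt the shares were 61.7 to 75.9% against 48.2 to 55.9%, and from 600 nt on 35.6 to 52.0% against 22.5 to 27.9%, higher at 5′ ends in all 4 tables in both classes. Gene 3′ ends lost 50.6% (Mettl14) and 51.2% (Mettl3) of their scramble peaks in set 1 and 59.2% and 48.5% in set 2. Against these, the 5′ end peaks were lost more often by 7.87 percentage points on average (exact permutation test, p = 0.125).

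Knockdown peaks at 5′ ends were also more often without a scramble partner. Of the knockdown 5′ end peaks, 73 of 189 (38.6%) in Mettl14 set 1, 130 of 216 (60.2%) in Mettl14 set 2, 49 of 170 (28.8%) in Mettl3 set 1 and 143 of 240 (59.6%) in Mettl3 set 2 overlapped no scramble peak. The shares of new peaks among all gene-assigned knockdown peaks were 15.2, 26.5, 10.8 and 23.7% in these tables. Gene 3′ ends had 15.5, 21.1, 11.3 and 19.8% new peaks, so the excess at 5′ ends was not shared by the mirrored regions. That excess was not tested, and it varied with width. Under 300 nt, 66.7 to 90.5% of the knockdown 5′ end peaks were new, against 33.2 to 68.7% of the others. Between 300 and 600 nt the shares were 12.7 to 54.5% against 8.76 to 28.2%. From 600 nt on they were 2.17, 11.6, 4.76 and 17.5% at 5′ ends, in the same order, against 5.08, 12.7, 3.76 and 12.0%. Among these wide peaks the 5′ end share was thus lower for Mettl14 and higher for Mettl3. New 5′ end peaks were small, with median tags of 10, 22, 13 and 18 and median widths of 163, 215, 192 and 193 nt. Shared ones had 51, 64, 55 and 76 tags and 475, 531.5, 486 and 587 nt. The new ones had the higher enrichment, with medians of 67.4, 30.2, 134 and 30.5 against 18.2, 12.6, 18.3 and 11.1 for the shared ones.

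**Figure D3:**
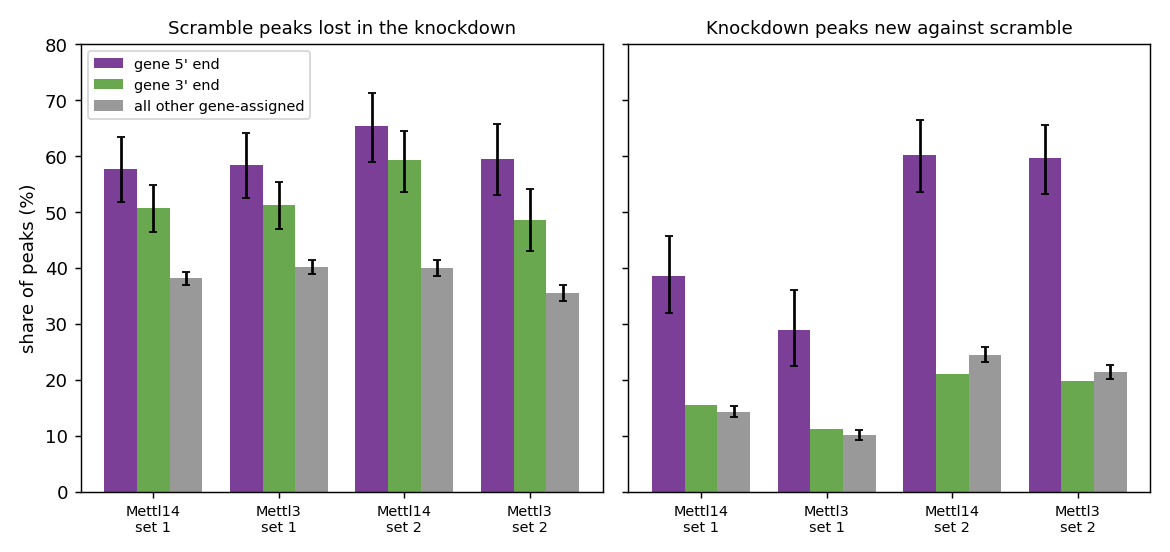
Left, share of scramble peaks with no overlapping knockdown peak (%); right, share of knockdown peaks with no overlapping scramble peak (%), for peaks at gene 5′ ends, at gene 3′ ends and for all other gene-assigned peaks (3′ ends included) in the 4 tables, with 95% Wilson intervals where they were computed. Loss at 5′ ends is 57.7 to 65.3% against 35.4 to 40.2% elsewhere; new peaks at 5′ ends make up 28.8 to 60.2% against 10.1 to 24.5% elsewhere.

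New 5′ end peaks recurred in the other knockdown of their set in a minority of cases. Of the 73 and 49 new ones of Mettl14 and Mettl3 in set 1, 9 (12.3%) and 10 (20.4%) overlapped a peak of the other knockdown of the set, against 27.8% and 42.4% of the other new gene-assigned peaks. In set 2 24 of 130 (18.5%) for Mettl14 and 24 of 143 (16.8%) for Mettl3 did, against 36.0% and 39.7%. This difference was not tested. Of the same new peaks, 30.1 and 17.7% (Mettl14, sets 1 and 2) and 22.4 and 20.98% (Mettl3) overlapped a knockdown peak of the other set. In the scramble library of the other set, 12.3 and 10.8% (Mettl14) and 32.7 and 14.0% (Mettl3) had an overlapping peak, so some peaks that were new within a set were present in scramble cells. At the median, those present in both knockdowns held 17 to 42.5 tags and those in 1 alone 9 to 19.

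Replication between sets was lower at 5′ ends. In Mettl14 cells 45.5% of the set 1 5′ end peaks overlapped a set 2 peak and 39.4% of the set 2 ones a set 1 peak, against 62.6% and 81.6% of other peaks. In Mettl3 cells these shares were 56.5% and 37.5%, against 69.8% and 81.2%, and in scramble cells 56.3% and 61.8%, against 62.2% and 89.2%. The mean of the 2 directions was lower at 5′ ends in all 3 groups, by 24.9 ± 7.19 percentage points (SD, n = 3 groups, no test). This applied to the scramble cells as well as to both knockdowns. The members were also narrower and held fewer tags than the other peaks, and the part of either in this overlap was not tested. The size of the differences depended on the window: with midpoints up to 1000 nt from the gene start the overlap difference was -12.9 points, the excess of lost peaks 11.3 points, the log2 width difference -0.26 and the log2 enrichment difference 0.35, and with 250 nt the log2 enrichment difference was 0.999.

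Where a gene had both a 5′ end peak and another peak in the scramble library, the pair could be followed within 1 transcript unit. In set 1 142 genes did: under Mettl14 knockdown 50 lost the 5′ end peak and kept at least 1 other, 10 did the reverse, 64 kept both and 18 lost both. Under Mettl3 knockdown these were 62, 11, 54 and 15 of the same 142 genes. In set 2 101 genes did, with 45, 2, 36 and 18 under Mettl14 knockdown and 55, 4, 35 and 7 under Mettl3 knockdown. Loss of the 5′ end peak alone was thus more frequent than the reverse in all 4 tables. A gene could have several other peaks, of which 1 kept was enough, and the 5′ end peaks were narrower; the part of either in these counts was not tested.

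No difference in the change of shared peaks was detected between 5′ ends and elsewhere. Their median log2 change of scaled enrichment in the authors' deposited tables was -0.02 for Mettl14 and 0.44 for Mettl3 in set 1, and -0.76 and -0.86 in set 2. Other shared peaks in the authors' deposited tables had -0.07 and 0.20 in set 1 and -0.59 and -0.91 in set 2. The difference averaged 0.04 (exact sign-flip permutation test over 4 tables, p = 0.625, adjusted p = 0.667, smallest possible p 0.125). Its sign depended on single libraries: it was -0.02 without the Mettl3 library of set 1 and -0.06 without the scramble library of set 1. With knockdown peaks of an FDR of at most 1% the difference was 0.12. Against gene 3′ ends, an alternative chosen after seeing the data, it was 0.14. Both had p = 0.125 by the same permutation test. By the authors' deposited tables, lower values than in scramble were found for 52.6% (Mettl14) and 29.8% (Mettl3) of the shared 5′ end peaks of set 1, where all gene-assigned shared peaks had 55.6% and 35.5% lower and 44.4% and 64.5% higher. In set 2 86.0% and 92.8% were lower, where all had 86.4% and 94% lower and 13.6% and 6.04% higher. For each knockdown the median was lower in set 2 than in set 1, in members and in other peaks alike. The tables scale the knockdown enrichment by a constant of 0.906, 1.00, 0.777 and 0.609 (Mettl14 and Mettl3 in set 1, then in set 2), and without it the members' medians became 0.12 and 0.44 (set 1), then -0.40 and -0.14 (set 2).

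The number of libraries with a 5′ end peak was counted for each gene. A gene counts for a library only if a peak midpoint lay within 500 nt of its 5′ end there. A peak with a shifted midpoint is thus not counted, and no such count was made for the other gene-assigned peaks. With each scramble peak classed by its own midpoint, 684 genes had a 5′ end peak in at least 1 library: 422 (61.7%) in 1 library, 110 in 2, 52 in 3, 27 in 4, 40 in 5 and 33 in all 6. The genes seen in 1 library were 53 and 95 in the Mettl14 libraries of sets 1 and 2, 28 and 104 in the Mettl3 libraries and 84 and 58 in the scramble libraries. Peaks of genes seen once had a median of 20 tags and 229.5 nt, and those of the genes seen in all 6 had 106 tags and 714.5 nt. Of the member peaks themselves, 23.8 and 42.6% (Mettl14, sets 1 and 2), 13.5 and 40.4% (Mettl3) and 26.1 and 22.7% (scramble) overlapped no peak in any other library. For other gene-assigned peaks these shares were 6.29 and 6.44%, 3.77 and 4.00%, and 18.1 and 6.45%. An overlapping peak in every other library was found for 16.9 to 31.2% of member peaks and for 32.3 to 59.0% of other gene-assigned peaks. That share was lower for members in each library.

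**Figure D4:**
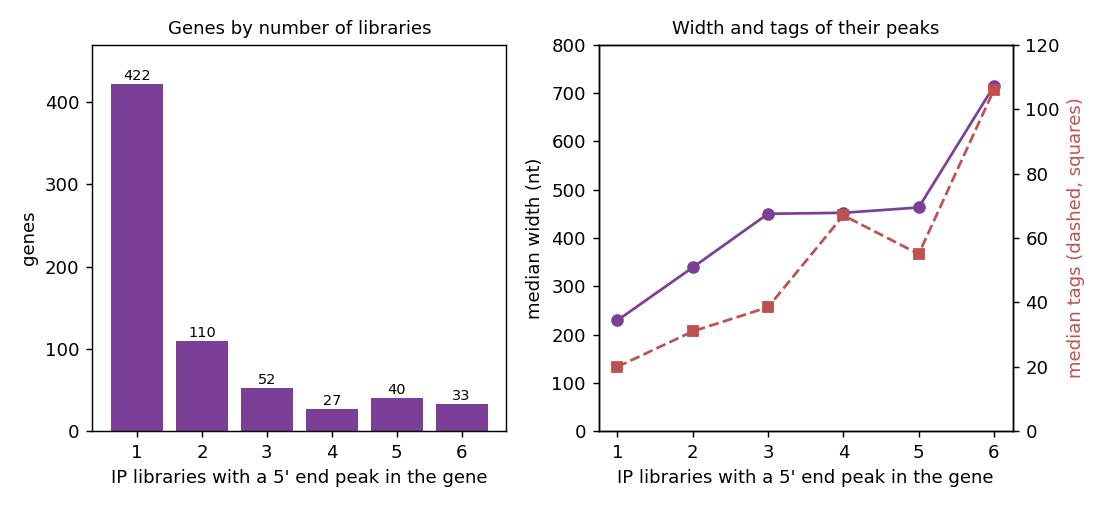
Left, number of genes by the number of IP libraries in which they had a 5′ end peak (684 genes in all); right, median width (nt, left axis, circles) and median tags (right axis, squares) of the peaks of those genes. Genes seen in 1 library make up 422, those in all 6 make up 33, and the median of tags is 20 in the first class and 106 in the last.

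The 33 genes with a 5′ end peak in all 6 libraries included developmental signalling genes and regulators of transcription, and in 32 of them the 6 peaks had nucleotides in common. Foxo6, a forkhead transcription factor, had the highest median enrichment. Its peak (widths 239 to 585 nt) had enrichments of 104 and 182 in the Mettl14 libraries of sets 1 and 2, 538 and 46.6 in the Mettl3 libraries and 29.3 and 213 in the scramble libraries. The groups overlapped, and the knockdown peaks held 11 to 37 tags. The log2 change of Foxo6 in the authors' deposited tables was 1.69 (Mettl14) and 4.20 (Mettl3) in set 1 and -0.59 and -2.91 in set 2, so its sign followed the set.

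Cnnm3, a member of the CNNM family of magnesium transport proteins, had the smallest spread of widths in nt among the 10 genes with the highest enrichment. Its peak was 259 to 316 nt wide in all 6 libraries, with its midpoint 111.5 to 143.5 nt inside the gene and 255 nt common to all. Its enrichment was 32.0 and 20.5 in the Mettl14 libraries of sets 1 and 2, 23.4 and 32.5 in the Mettl3 libraries and 46.5 and 29.1 in the scramble libraries, so the groups overlapped. With scaling, the log2 change of Cnnm3 in the authors' deposited tables was -0.68 and -0.87 for Mettl14 and -0.99 and -0.55 for Mettl3 in sets 1 and 2, below 0 in all 4. The tag counts were also close, at 50 to 58 in the 4 knockdown libraries.

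Inhbb, which encodes the beta B subunit of inhibin and activin, had peaks of 321 and 366 nt in the Mettl14 libraries and 517 and 404 nt in the Mettl3 libraries, against 1645 and 1728 nt in the scramble libraries. Its enrichment was 28.7 and 66.3 in the Mettl14 libraries, 120 and 26.9 in the Mettl3 libraries and 12.8 and 20.0 in the scramble libraries, so every knockdown value was above both scramble values. Its log2 change in the authors' deposited tables was 1.02 and 1.37 (Mettl14) and 3.23 and -0.28 (Mettl3) in sets 1 and 2. All 4 knockdown peaks of Inhbb were thus narrower and more enriched than both scramble peaks, and the part of width in the enrichment was not tested.

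Zfp30, a zinc finger gene, had peaks of 578 to 801 nt with enrichments of 114 and 23.9 (Mettl14), 23.2 and 13.3 (Mettl3) and 20.6 and 51.2 (scramble). Arhgap5, which encodes a GTPase-activating protein, had 25.1 and 9.66 (Mettl14), 50.9 and 28.8 (Mettl3) and 30.5 and 16.1 (scramble). Synm, which encodes the intermediate filament protein synemin, had 16.3 and 10.3, 30.8 and 12.7, and 20.2 and 20.1 in the same order. In these 3 genes the knockdown values lay on both sides of the scramble values. Pigl, an enzyme of GPI anchor synthesis, had its peak mainly upstream of the listed start, with midpoints at -222 to -7.5 nt and enrichments of 14.7 to 27.5 over the 6 libraries. The unnamed genes 4930429B21Rik and 2010109K11Rik had enrichments of 16.4 to 200 and 12.9 to 35.8.

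**Figure D5:**
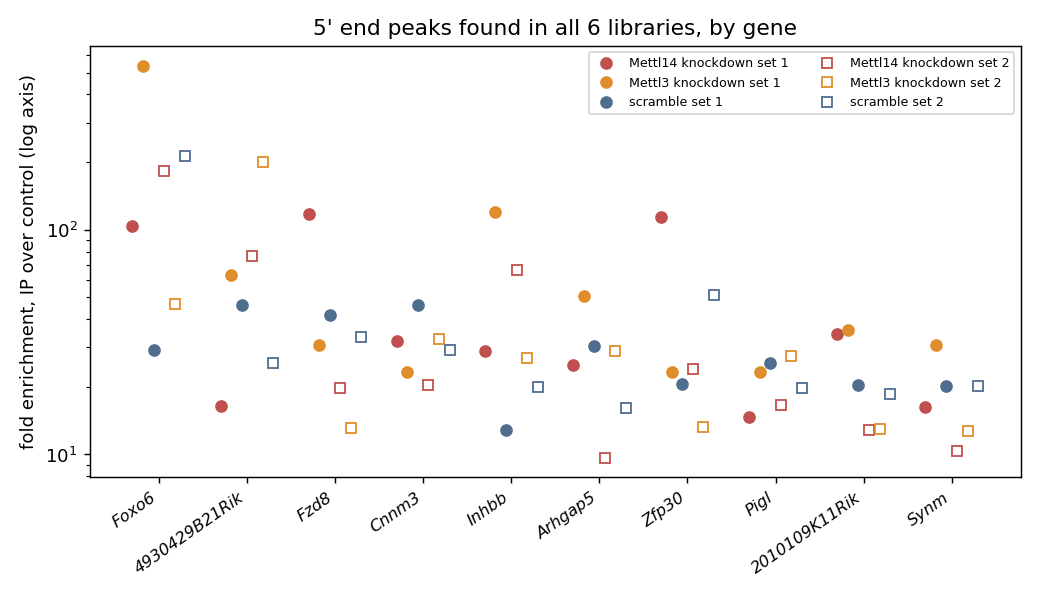
Fold enrichment (IP over control, log axis) of the 5′ end peak in each IP library for the 10 genes with the highest median among the 33 found in all 6 libraries. Knockdown points of Foxo6 span 46.6 to 538 around scramble points of 29.3 and 213, while those of Cnnm3 lie within 20.5 to 32.5 beside scramble points of 46.5 and 29.1.

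A change of one sign in all 4 tables was read against all genes with such peaks. Of 41 genes with 1 shared 5′ end peak in all 4 tables, 10 (24.4%) were lower in all 4 and 0 were higher in all 4. Over all 1157 genes with 1 shared peak of a kind, 25.3% were lower and 1.21% higher in all 4, so the share at 5′ ends was near the background. Without the scaling constants 6 of the 41 were lower and 6 higher in all 4. The gene with the largest decrease by its weakest table was Fbxw7, the substrate-recognition subunit of an SCF ubiquitin ligase. Its enrichment was 17.1 and 11.9 in the Mettl14 libraries of sets 1 and 2, 12.7 and 11.1 in the Mettl3 libraries and 27.4 and 23.5 in the scramble libraries. All 4 knockdown values of Fbxw7 lay below both scramble values. Its knockdown peaks were 481 to 690 nt wide with midpoints at 151 to 243.5 nt. Its scramble peaks were 1200 and 1344 nt wide with midpoints at -69.5 and -134.5 nt. The part of width and position in this difference was not tested. The log2 change of Fbxw7 in the authors' deposited tables was -0.82 and -1.35 (Mettl14) and -1.11 and -1.80 (Mettl3).

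Gm340 had knockdown enrichments of 10.9 to 12.2 in the 4 libraries, against 21.5 and 14.4 in the scramble libraries, and its groups did not overlap either. In 9830001H06Rik the knockdown values of 61.7 and 10.9 (Mettl14) and 18.3 and 12.5 (Mettl3) overlapped the scramble values of 82.6 and 17.2. Ndst2, an enzyme of heparan sulfate synthesis, had 21.9 and 20.8 (Mettl14), 33.9 and 20.1 (Mettl3) and, in the scramble library of set 2, 22.1; in set 1 the midpoint of its scramble peak was not at the 5′ end. The log2 change of Ndst2 in the authors' deposited tables was -1.34 and -0.45 (Mettl14) and -0.56 and -0.86 (Mettl3). Single peaks were not tested, since an exact permutation of 4 knockdown against 2 scramble libraries cannot give a p below 0.0667.

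At 27 loci a scramble 5′ end peak was present in both sets and lost in all 4 tables. The scramble peaks with no partner in either knockdown of their set numbered 129 of 272 in set 1 and 111 of 225 in set 2. These counts and that of the 27 loci were not made for the other gene-assigned scramble peaks. They have no background share and are not read as particular to 5′ ends. The highest enrichments among the 27 were those of Gm20632, an antisense RNA gene, at 367 and 131 in the scramble libraries of sets 1 and 2 on 31 and 21 tags, and of C030034I22Rik, a long noncoding RNA gene, at 138 and 154 on 12 and 14 tags. Olig1, a basic helix-loop-helix factor of the oligodendrocyte lineage, had 147 and 88.6 on 34 and 19 tags, in its coding sequence. All 3 peaks rested on few tags, 12 to 34, where all members of the scramble libraries that were lost in at least 1 knockdown had medians of 40 and 51.

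The other high loci lost throughout were Dync2h1, which encodes the heavy chain of the dynein of intraflagellar transport (34.3 and 156 in the scramble libraries), Net1, a guanine nucleotide exchange factor (25.1 and 156), Mblac2, which encodes a metallo-beta-lactamase domain protein (80.4 and 88.6), the antisense gene Gm12932 (43.9 and 62.9) and Atg7, the E1-like enzyme of autophagy (53.6 and 19.7). In Dync2h1, Net1 and Atg7 the midpoint lay in an intron of the matched transcript, whose first exon has 108, 241 and 39 nt. The tags of these 5 loci were 17 to 43. Larger peaks were lost too: that of Sqle, squalene epoxidase of cholesterol synthesis, had 120 and 138 tags at enrichments of 8.90 and 7.51, and that of Bace1, the beta-secretase, 99 and 124 tags at 11.5 and 26.7; these 2 were chosen after their values were seen.

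The reverse pattern was rare. Only Bhlhe22, a basic helix-loop-helix factor of neural development, had a 5′ end peak in all 4 knockdown libraries that was new in all 4 tables. Its enrichment was 27.7 and 40.9 in the Mettl14 libraries of sets 1 and 2 and 194 and 36.6 in the Mettl3 libraries, on 16, 33, 9 and 14 tags. The peaks were 179 to 444 nt wide in the 5′ UTR, and the scramble libraries list no 5′ end peak there. With 27 loci lost throughout and 1 gene new throughout, the counts differ. Loss needed 2 scramble peaks and the new class 4 knockdown peaks, so the counts are not on the same footing. Neither was made for the other gene-assigned peaks.

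Genes of the pathways around m6A and ES cell identity were sampled through 9 lists, beside 684 of 5959 genes with any peak (11.5%) that had a 5′ end peak. In the list of developmental signalling genes 9 of 32 with a peak had one at the 5′ end, and 5 of them in at least 4 libraries. Ptch1, the receptor of Hedgehog ligands, had the most constant of these: widths of 973 to 1016 nt, midpoints at -326 to -304.5 nt, upstream of the listed start, and enrichments of 9.87 and 8.52 (Mettl14), 12.3 and 8.01 (Mettl3) and 8.84 and 7.76 (scramble). Its log2 change in the authors' deposited tables was 0.02 and -0.23 (Mettl14) and 0.48 and -0.67 (Mettl3). The peak of Ptch1 thus stayed in every library with enrichments of 7.76 to 12.3, and the groups overlapped.

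Gli2, a transcription factor of the Hedgehog pathway, had a peak upstream of its listed start in 4 libraries, with 27.5 in the Mettl14 and 67.7 in the Mettl3 library of set 1 and 29.98 and 26.5 in the scramble libraries. Fzd8, a Wnt receptor, had 117 and 19.8 (Mettl14), 30.7 and 13.1 (Mettl3) and 41.8 and 33.4 (scramble), over widths of 222 to 1490 nt. Smad7, the inhibitory Smad of TGF-beta signalling, had 8.70 and 6.14 (Mettl14), 9.72 and 6.61 (Mettl3) and 5.88 and 5.99 (scramble), so every knockdown value lay above both scramble values. The log2 change of Smad7 in the authors' deposited tables was 0.42 and -0.33 (Mettl14) and 0.73 and -0.85 (Mettl3), above 0 in set 1 and below 0 in set 2. These changes use scaled knockdown enrichment, with constants of 0.777 (Mettl14) and 0.609 (Mettl3) in set 2, while the enrichments printed are unscaled. Values above scramble can thus go with a change below 0. Where a knockdown peak overlapped several scramble peaks, each pair has its own change and their mean is given, as in Smad7 for Mettl3 in set 2. For both reasons the change need not follow from the 2 enrichments printed. Spry2, an inhibitor of receptor tyrosine kinase signalling, had 6.03 in the Mettl14 library of set 1, 8.31 and 7.64 in the Mettl3 libraries and 4.80 and 6.95 in the scramble libraries. The remaining members of the list, Fzd2, Irs1, Irs2 and Jun, had a 5′ end peak in 1 or 2 libraries.

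Among chromatin regulators 3 of 21 genes with a peak had one at the 5′ end, and that of Ep300, a histone acetyltransferase, was in all 6 libraries: 10.2 and 8.28 (Mettl14), 13.8 and 9.26 (Mettl3) and 9.31 and 9.95 (scramble), which overlap. Of the m6A machinery 3 of 13 had one, each in 1 library: Wtap, the subunit that holds the writer complex in nuclear speckles, with 14 tags in the Mettl3 library of set 1, Igf2bp2, a reader, with 10 tags in the same library, and Ythdc1, the nuclear reader, with 114 tags in the scramble library of set 2. Of developmental transcription factors 2 of 22 had one and of cell cycle genes 2 of 7 (Cdc25a and E2f3).

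None of 16 pluripotency genes with a peak had one at the 5′ end, and the ribosomal protein list and the list of kinesin, actin and housekeeping genes had 0 and 1 genes with any peak and 0 at the 5′ end. Zfp genes made up 15 of the 684 genes (2.19%), against 233 of the 5959 with any peak (3.91%). Of 8 markers of ES cells 3 had any peak (Sox2, Klf4 and Esrrb) and 0 had one at the 5′ end. Of 8 markers of feeder fibroblasts only Thy1 had a peak, at its 5′ end in the Mettl14 library of set 2, on 9 tags. Peaks report fragments enriched by the antibody and not RNA levels, so a marker with no peak is not shown to be unexpressed.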

How the data were processed

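The authors' 4 deposited tables list peaks of anti-m6A IP libraries from J1 mouse ES cells. The submitters' processing notes name Picard 1.74, TopHat2 2.0.6, Bowtie 0.12.7, cutadapt 1.1, SAMtools 0.1.18, CASAVA 1.8.2 and the build mm10, in no stated order. Nothing used here states the version of the peak caller. By the column names (per the file headers), each peak has a deposited tag count, a fold enrichment (a ratio of IP to control), an FDR in percent, a −log10 p-value score and, where shared, a signed fold of scaled enrichment, all the authors' own values per library or comparison.

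Rows were joined by coordinates within a table and mapped to 6 libraries, whose lists held 4367 to 7886 peaks with 4 to 2151 tags a peak in rows with a listed count. A shared row lists the knockdown peak's tags only; the scramble enrichment was solved from the signed fold, which was then put on a log2 scale and averaged where a knockdown peak overlapped several scramble peaks. Library totals are not in the tables, so depth is unknown, and Wilson intervals (95%) cover counting error only. Values were compared over libraries or tables with exact permutation tests at 0.05, adjusted over 6 tests by Benjamini-Hochberg, and the tests were checked on simulated data. The sign-flip test asks how often random signs of the differences give a mean as large. Peaks were laid on GENCODE M21 transcripts for sequence and region, with the transcript of the gene that covered most of the peak.

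Named genes were the 10 of highest median enrichment in all 6 libraries, the 8 of highest mean enrichment among loci lost throughout, those new throughout, the 5 with the largest one-signed change, list members in at least 4 libraries, and 3 on each side of the 500 nt limit. The members and the 9 gene lists were chosen with earlier results of these data known. Alternatives were other windows, overlaps, FDR limits, scalings, motifs and left-out libraries. Python 3.11.15, pandas 2.3.3, numpy 2.4.6 and matplotlib 3.10.9 were used.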

Additional observations from a re-analysis of the deposited data

Results flagged for a closer look

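The change in the share of gene-assigned peaks at gene 5′ ends had opposite signs in the sets. It was -0.280 percentage points for Mettl14 knockdown minus scramble and -0.338 for Mettl3 knockdown minus scramble in set 1. In set 2 it was 0.846 for Mettl14 and 1.15 for Mettl3. Both knockdown libraries of a set moved the same way and share a scramble library, and the difference between the sets was not tested.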

How the results depend on the processing

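The columns carry no replicate number of the labels, so the set served as the replicate block for the share of peaks at 5′ ends, an alternative chosen after seeing the data: the difference was 0.345 points (exact permutation of labels within sets, p = 0.444, smallest possible 0.111). Other tests already paired values within a library or table. Over 6 tests, 0 passed 0.05 after adjustment, and 3 passed it unadjusted. Leaving out 1 library at a time gave differences of 0.51 to 0.57 (log2) for enrichment, -0.74 to -0.57 (log2) for width and -6.01 to -5.53 DRACH sites per kb, all with p = 0.0625, the smallest that 5 libraries allow in the permutation test. The share of peaks at 5′ ends ranged over -0.0580 to 0.747 points, below 0 without the Mettl3 library of set 2 and without the scramble library of set 1 (-0.0568). The log2 change of shared peaks ranged over -0.0559, without the scramble library of set 1, to 0.15, with -0.02 without the Mettl3 library of set 1. The excess of lost peaks ranged over 18.9 to 24.7 points and the overlap difference, without 1 group, over -29.1 to -22.6 points. With an FDR of at most 1% in the 4 knockdown libraries, the differences were 0.36 for enrichment (permutation p = 0.25), -0.51 for width and -6.0 for DRACH (both p = 0.125, the smallest that 4 libraries allow). Among peaks of 200 to 600 nt the enrichment difference was 0.18. GGACT in place of DRACH turned the density difference to 0.527 per kb. A limit of 1000 nt in place of 500 nt brought the overlap difference to -12.9 points, the excess of lost peaks to 11.3 points, the width difference to -0.26 and the enrichment difference to 0.35 (both log2). The cause of these changes was not tested. Of 83 recomputed values 78 kept their direction. Of 17 whose test could reach 0.05, 15 stayed past it unadjusted and in the same direction, the exceptions being the 200 to 600 nt peaks and GGACT. The FDR limit was not run for the share of peaks and for loss, since shared scramble peaks have no listed FDR.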
